A study of Lathyrus oleraceus with 4 samples.

Results

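Unheated flower buds of 2 pea cultivars were compared, Arka Chaitra with Matar Ageta, from 2 of the 4 samples of an RNA sequencing series on pea (Pisum sativum, listed as Lathyrus oleraceus). The submitters describe Arka Chaitra as heat-tolerant and Matar Ageta as susceptible. Both control groups were greenhouse plants held at a day temperature of 22 °C and a night temperature of 16 °C, and unopened buds were taken before anthesis, when the flower opens. The 2 samples left out of the comparison are buds of the same cultivars after 2 h at 35 °C, and they serve here as separate libraries in which each control difference could be looked up. The members were the 4 control columns of estimated counts, 2 numbered columns for each cultivar, of 8 columns in all.

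The cultivar of each sample was taken from its title and library name, because the genotype tag named the opposite cultivar: tag and title matched in 0 of 4 samples. Cultivar names below therefore mean the libraries that bear that name in their titles. The batch tag reads the same for every sample and gives no batch to separate from the cultivar. Each cultivar is 1 control sample, no label says how many plants were pooled, and no label says whether the numbered columns are separate plants, preparations or sequencing runs. With 1 sample per cultivar there is no test and no p-value, and a difference has no check between replicates. The 2 columns of a library are treated below as measurements of 1 sample and not as replicates. They show how far such measurements lay apart, and the main rule asks for a difference in every pair of columns.

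In pea and other legumes the time around pollen formation is known as a heat-sensitive stage, and loss of pollen viability there lowers pod and seed set. Cultivars bred apart differ in gene sequence, in gene copies and in the regulatory regions that set transcript levels, so a difference in unheated tissue can exist before any stress. In a bud, petals, anthers, pistil and sepals are sampled together. In such bulk tissue, fewer cells of a type and less RNA per cell cannot be told apart. The features are genes of a transcriptome assembly, and a form of a gene that differs in sequence can be listed as an entry of its own.

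The identifiers carry no gene names, so no gene family or pathway is named, and the tissue label was not checked against bud markers. Each identifier holds a cluster number, a component number and a gene number. There were 127533 assembled genes under 69607 cluster numbers, in the same set of identifiers for both cultivars. The Arka Chaitra control columns held 11349120 and 12898178 counts, and the Matar Ageta control columns held 15365483 and 15074446. Levels are CPM, the count scaled to library size, computed over all columns, and 1 CPM was 23.2 counts in the summed Arka Chaitra control and 30.9 in the summed Matar Ageta control. Values give counts per gene, with no gene length term.

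At least 1 CPM was reached by 50268 assembled genes in the Arka Chaitra control and by 46086 in the Matar Ageta control. Of the 61595 genes that reached it in either library, 34759 (56.4%) did so in both. Another 15509 (25.2%) passed 1 CPM in Arka Chaitra alone and 11327 (18.4%) in Matar Ageta alone. The excess of Arka Chaitra shrank with the level. At 10 CPM there were 15040 genes in Arka Chaitra and 14251 in Matar Ageta, and at 100 CPM there were 1749 in Arka Chaitra and 1734 in Matar Ageta. The Arka Chaitra library was the shallower one. The median log2 ratio of Arka Chaitra over Matar Ageta, with 0.5 CPM added to each value, was 0.05 over the 61595 genes, with quartiles at -0.74 and 1.38. On that scale 49.9% of genes lay within 2-fold.

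**Figure D1:**
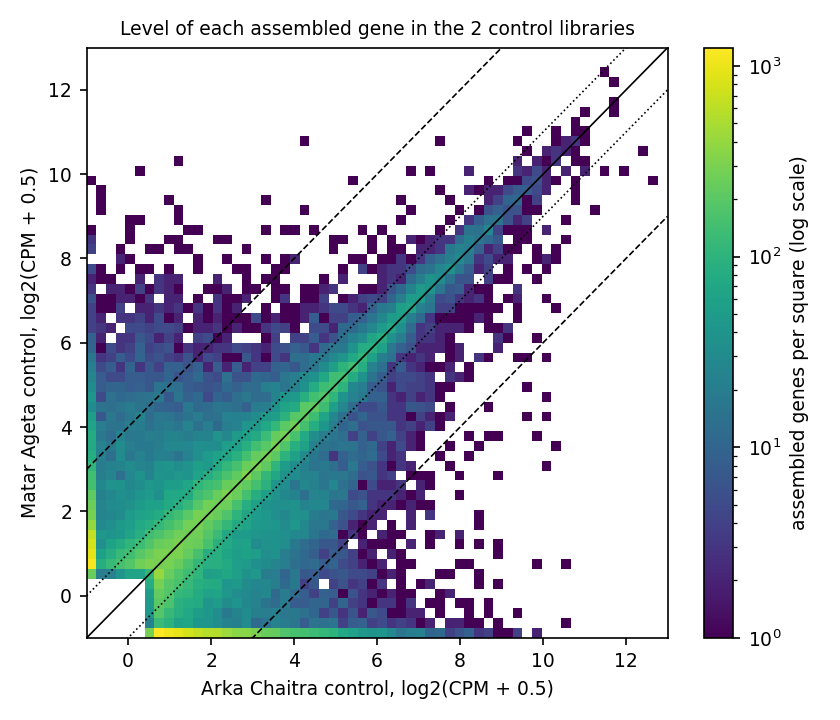
Number of assembled genes in each square of level in the Arka Chaitra control (x axis) and the Matar Ageta control (y axis), both as log2(CPM + 0.5), for the 61595 genes at 1 CPM or more in either library. The solid line marks equal levels, the dotted lines 2-fold and the dashed lines 16-fold. Genes crowd along the diagonal and also along both axes, where 1 library held no or almost no counts.

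A difference was called when the lowest column of the higher cultivar was at least 2-fold above the highest column of the other, with 0.5 CPM added, and the higher summed library held at least 1 CPM. By this rule 9733 of 61595 genes were higher in Arka Chaitra (15.8% of all measured), against 6791 that were higher in Matar Ageta (11.0%). A looser rule asked for a 2-fold ratio of the summed libraries with an exact (Clopper-Pearson) 95% counting interval that excluded 1. It gave 17615 genes for Arka Chaitra (28.6%) and 13253 for Matar Ageta (21.5%). Of these, 55.3% and 51.2% also met the rule on every column pair, so many genes 2-fold apart by sum were not 2-fold apart in every pair. The rule on every pair is stricter in size, and a gene can fail it and still differ in each column. With the order of columns alone as the criterion, 17649 genes had both Arka Chaitra columns above both Matar Ageta columns (28.7%), and 14728 had the reverse (23.9%).

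Single columns changed these counts. The 9733 genes higher in Arka Chaitra became 14921 without the first Arka Chaitra column and 15208 without the second. Those higher in Matar Ageta became 10410 without the first Matar Ageta column and 13419 without the second. Without the second Matar Ageta column the excess turned over, with 12824 genes for Arka Chaitra and 13419 for Matar Ageta, so the Arka Chaitra share of calls was 48.9%, against 58.9% with all columns. Leaving out a column also leaves fewer pairs to satisfy.

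The columns of 1 library lay closer to each other than to the other cultivar in all 4 ranges of level, and the gap was larger above 5 CPM than below it. Among the 2182 genes whose higher library reached 100 CPM, 35.3% to 39.3% differed at least 2-fold between an Arka Chaitra and a Matar Ageta column. Between the 2 Arka Chaitra columns 7.24% did, and between the 2 Matar Ageta columns 17.0%. Among the 31830 genes at 1 to 5 CPM the shares were 46.9% to 53.9% between cultivars, 32.9% within Arka Chaitra and 35.2% within Matar Ageta. A low gene thus gives little ground for a cultivar difference by itself. The Matar Ageta columns lay farther apart than the Arka Chaitra columns in each range.

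**Figure D2:**
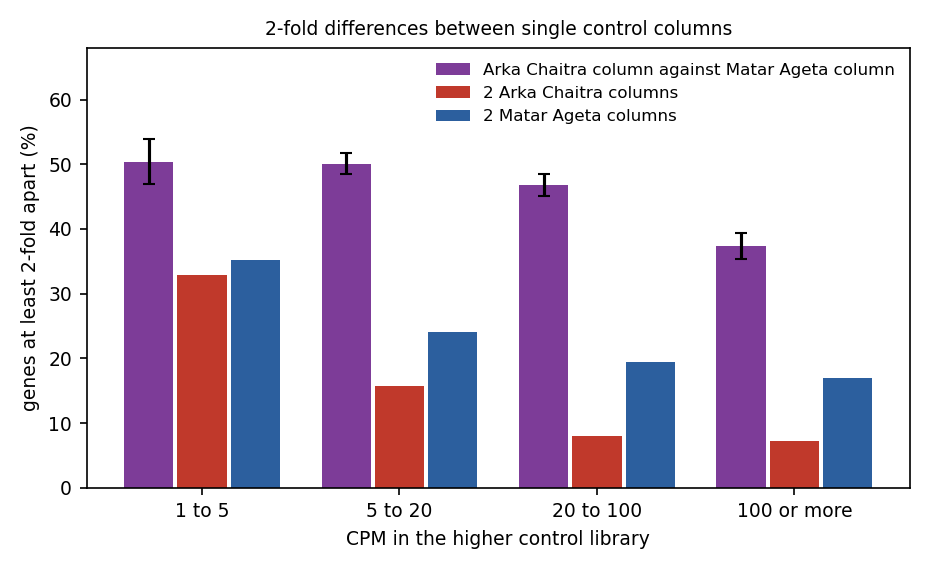
Share of assembled genes at least 2-fold apart between single control columns, by CPM in the higher summed control library. Purple bars are placed midway between the lowest and the highest of the 4 pairs of an Arka Chaitra and a Matar Ageta column, with whiskers at both; red and blue bars are the 2 columns of 1 library. Between cultivars the share stays above 35% in every range, while within Arka Chaitra it drops to 7.24% at 100 CPM or more.

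Called genes were a larger share above 5 CPM than below it. Of 8696 genes at 20 to 100 CPM, 1783 (20.5%) were called in favour of Arka Chaitra and 1423 (16.4%) in favour of Matar Ageta. At 100 CPM or more it was 349 genes (16.0%) and 250 genes (11.5%). At 1 to 5 CPM it was 12.2% and 7.62%. In each range of level the genes higher in Arka Chaitra outnumbered those higher in Matar Ageta.

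The genes that took most counts were mostly the same in both cultivars. The 100 genes with most counts took 14.0% of the Arka Chaitra control library and 13.4% of the Matar Ageta control library, and 66 genes stood in both lists. Of the 100 in Arka Chaitra, 23 were called higher there, against 15.8% of all measured genes, and 0 were called higher in Matar Ageta. Of the 100 in Matar Ageta, 14 were called higher there, against 11.0% of all, and 2 higher in Arka Chaitra. Each list was ranked by the same control counts that enter the calls, which favours genes higher in that cultivar. The called genes in a list therefore describe it and are no evidence of an excess. These lists rank counts and not transcript numbers, because longer transcripts give more counts.

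With 16-fold in place of 2-fold between every pair of columns, the difference favoured Arka Chaitra in 1962 genes (3.19%) and Matar Ageta in 1086 (1.76%). Because 0.5 CPM is added, only genes above 7.5 CPM in the higher columns can be counted here. The 1962 genes held 8.86% and 9.17% of the counts of the Arka Chaitra columns, against 0.0321% and 0.0404% of those of the Matar Ageta columns. The 1086 genes held 0.0528% and 0.0566% in the Arka Chaitra columns, against 7.06% and 6.46% in the Matar Ageta columns. A group chosen for its difference must show one. The shares give its weight in the RNA of each bud sample. Without the second Matar Ageta column the 1962 genes became 3129.

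Within these sets the lower cultivar was more often at 0 when it was Matar Ageta, and zeros leaned the same way among all measured genes. Of the 1962 genes higher in Arka Chaitra, 1337 (68.1%) had 0 counts in the Matar Ageta control, and 915 (46.6%) had 0 in the heated Matar Ageta library as well. Of the 1086 genes higher in Matar Ageta, 361 (33.2%) had 0 counts in the Arka Chaitra control and 247 (22.7%) had 0 in both Arka Chaitra libraries. Of all 61595 measured genes, 13.9% had 0 counts in the Matar Ageta control and 8.92% in the Arka Chaitra control. In both libraries of a cultivar, 10.3% had 0 for Matar Ageta and 6.09% for Arka Chaitra. A count of 0 allows up to 3 counts, or 0.129 CPM in Arka Chaitra control buds and 0.0971 CPM in those of Matar Ageta, counting error only. The median level of the 1962 genes was 21.9 CPM in Arka Chaitra, against 0 CPM in Matar Ageta. The 1086 genes had a median of 0.171 CPM in Arka Chaitra and 30.0 CPM in Matar Ageta. A 0 says only that no reads were assigned to that entry, because the estimation divides reads among entries of like sequence.

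The 4 genes followed in each column were the one with the highest CPM in each 16-fold set and the pair from the cluster number that held both directions. TRINITY_GG_7105_c0_g2 had 2266 and 954 CPM in the Arka Chaitra control columns, against 0 and 0.302 CPM in the Matar Ageta control columns. Summed, it had 36001 counts in Arka Chaitra and 5 counts in Matar Ageta, a 10602-fold ratio with a 95% counting interval of 4107 to 29520. After heat it had 1033 and 1194 CPM in Arka Chaitra and 0 CPM in both Matar Ageta columns. The groups did not overlap in any column, although the Arka Chaitra control columns themselves lay more than 2-fold apart. The only other gene under the same cluster number went the same way, with 354 and 271 CPM in the Arka Chaitra control columns and 0 CPM in both Matar Ageta control columns.

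TRINITY_GG_37034_c0_g1 had 16.9 and 17.4 CPM in the Arka Chaitra control columns, against 2209 and 1028 CPM in the Matar Ageta control columns. Summed, it was 95.4-fold higher in Matar Ageta than in Arka Chaitra (counting interval 86.3 to 105). That interval leaves out the spread between columns, and the Matar Ageta control columns themselves lay more than 2-fold apart. After heat it had 10.5 and 8.91 CPM in Arka Chaitra and 3084 and 1735 CPM in Matar Ageta. This gene was detected in every column of both cultivars, unlike the first. The other gene of its cluster number was low in both and went the opposite way, at 2.40 CPM in Arka Chaitra control buds, against 0.293 CPM in those of Matar Ageta.

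By the rule on all columns, cluster 24800 was the only cluster number with a 16-fold gene in each direction. There were 3 to 7 such clusters with 1 column left out and 25 with 0.1 CPM added in place of 0.5 CPM. TRINITY_GG_24800_c0_g1 had 46.7 and 54.1 CPM in the Arka Chaitra control columns and 0 CPM in both Matar Ageta control columns, at least 522-fold higher in Arka Chaitra with 3 counts per library as the limit (the 95% counting interval began at 424-fold). It had 82.8 and 83.4 CPM after heat in Arka Chaitra and 0 CPM in Matar Ageta. TRINITY_GG_24800_c0_g2 had 0 CPM in both Arka Chaitra control columns and 9.64 and 9.95 CPM in the Matar Ageta control columns, at least 75.8-fold higher in Matar Ageta by the same limit (the counting interval began at 61.3-fold). After heat this second gene stood the other way round, with 14.3 and 20.3 CPM in Arka Chaitra and 3.02 and 2.42 CPM in Matar Ageta. The first gene thus kept its difference in the heated libraries and the second reversed it.

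**Figure D3:**
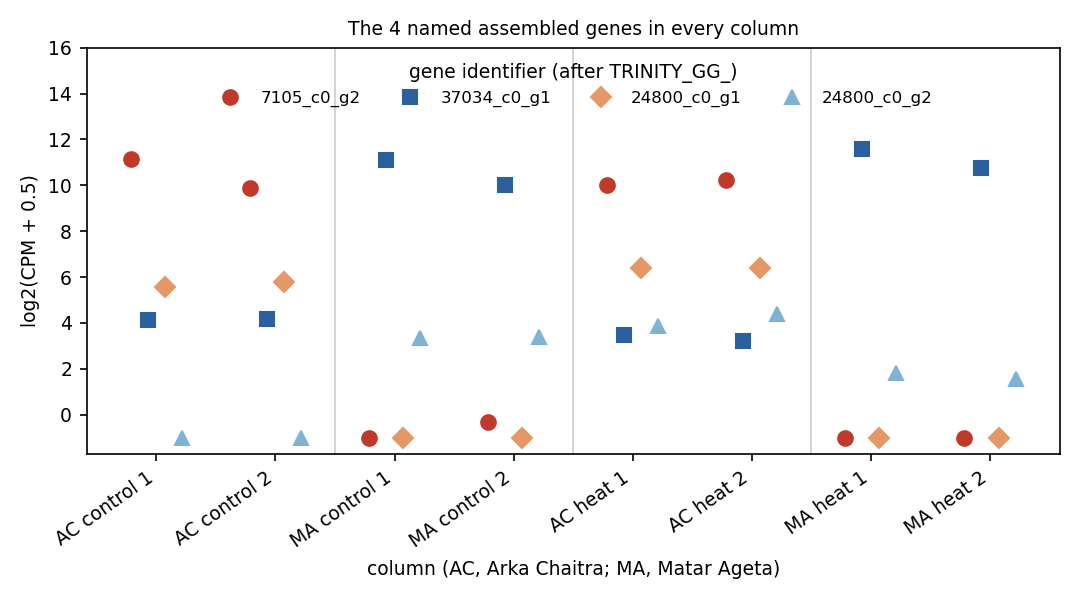
Level of the 4 genes named in the text, as log2(CPM + 0.5), in each of the 8 columns; points of 1 column are set side by side and a value of -1 is 0 CPM. Gene 7105_c0_g2 and gene 24800_c0_g1 are high in the 4 Arka Chaitra columns and at or near 0 in the 4 Matar Ageta columns, and gene 24800_c0_g2 is at 0 only in the Arka Chaitra control columns.

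The other genes under the same cluster numbers show whether a low entry stood beside a high one in the same cultivar. The 1962 genes higher in Arka Chaitra fell under 1842 cluster numbers, and the 1086 higher in Matar Ageta under 1073. The Arka Chaitra clusters held 707 further measured genes. Of these, 357 (50.5%) also passed the 2-fold rule for Arka Chaitra and 18 (2.55%) for Matar Ageta, against 15.8% and 11.0% of all genes. The Matar Ageta clusters held 348 further genes, of which 69 (19.8%) were also higher in Matar Ageta and 25 (7.18%) higher in Arka Chaitra. Stretches of cluster numbers, described below, were sorted by the cultivar with more 16-fold genes: Arka Chaitra (first kind) or Matar Ageta (second kind). In stretches of the first kind Arka Chaitra was 2-fold higher in 26.7% of genes and Matar Ageta in 3.09%, and in the second kind the shares were 6.97% and 17.5%. Against these, the share of neighbours going the same way was far higher in the Arka Chaitra clusters and slightly higher in the Matar Ageta clusters. The neighbours leave out the 16-fold genes, which the local shares include, so the sets are not alike, and no test was run. The shares of opposite genes were close to the local ones.

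Sums over a cluster number mostly repeat the called gene, since only 537 of the 1842 Arka Chaitra clusters and 254 of the 1073 Matar Ageta clusters held another measured gene. In those 537 clusters the sum was at least 2-fold higher in 492 (91.6%) and 16-fold higher in 302 (56.2%). In those 254 it was 234 (92.1%) and 117 (46.1%). Of all 1842 Arka Chaitra clusters, 1797 (97.6%) kept a 2-fold excess in Arka Chaitra as a sum and 1583 (85.9%) a 16-fold excess. Of all 1073 Matar Ageta clusters the numbers were 1053 (98.1%) and 854 (79.6%). Over all 50251 measured clusters, Arka Chaitra had 7772 sums that were 2-fold higher (15.5%) and 1664 that were 16-fold higher (3.31%), while Matar Ageta had 5701 (11.3%) and 869 (1.73%). The shares were close to those of single genes. Without the second Matar Ageta column the 5701 became 9128. At 2-fold, 8557 clusters held a gene higher in Arka Chaitra, 6487 held one higher in Matar Ageta, and 159 held both.

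The gene number in the identifier differed between genes of the 2 directions. A gene number above 1, which marks a further gene of the same component, was carried by 9.99% of the 16-fold genes higher in Arka Chaitra and by 3.31% of those higher in Matar Ageta, against 6.37% of all measured genes. Component number 0 was carried by 91.5% and 94.0% of the 2 sets, against 81.0% of all, so here both sets went the same way. The 16-fold sets hold only genes above 7.5 CPM, whereas all measured genes begin at 1 CPM. No share at like levels was computed. The gene was the only one of its cluster number in 45.0% and 44.3% of the sets, near the 43.6% of all measured genes.

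The direction of the difference followed the cluster number. The numbers were divided into 70 windows of 1000, and a window was called Arka Chaitra-rich where 16-fold genes higher in Arka Chaitra outnumbered those higher in Matar Ageta. The 28 Arka Chaitra-rich windows formed 4 unbroken runs, from 1 to 6999, 21000 to 32999, 38000 to 41999 and 47000 to 51999. The other 42 windows, called Matar Ageta-rich here, formed 4 runs between and after them. The 16-fold genes higher in Arka Chaitra lay in Arka Chaitra-rich windows in 89.2% of cases and those higher in Matar Ageta in 6.91%, where 44.8% of all measured genes lay. The windows were defined by these genes, so the shares describe the split and do not test it.

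The 4 Arka Chaitra-rich runs resembled each other. They held 31.2%, 23.7%, 22.6% and 30.5% of genes at least 2-fold higher in Arka Chaitra, against 2.06%, 3.41%, 3.07% and 3.84% higher in Matar Ageta. The 4 Matar Ageta-rich runs, in order of number, held 7.10%, 6.55%, 6.08% and 7.24% higher in Arka Chaitra, against 18.2%, 15.1%, 18.1% and 17.3% higher in Matar Ageta. The split was stronger in the Arka Chaitra-rich runs. The window from 48000 held the largest share of the 70, with Arka Chaitra higher in 40.5% of 1046 genes, against 2.39% for Matar Ageta. The window from 58000 stood at the other end, with Arka Chaitra higher in 6.81% of 867 genes, against 27.1% for Matar Ageta.

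The tails moved more than the middle. The median log2 ratio of Arka Chaitra over Matar Ageta was 0.41 in the Arka Chaitra-rich windows, with quartiles at -0.24 and 2.09, and -0.17 in the Matar Ageta-rich windows, with quartiles at -1.58 and 0.57. The middle gene of a single window reached a log2 ratio of 1.32, in the window from 48000, and -0.54 in the window from 58000. Finer windows of 100 numbers kept the pattern. In Arka Chaitra-rich windows, genes 2-fold higher in Arka Chaitra outnumbered the reverse in 257 of 280 fine windows. In Matar Ageta-rich windows, genes higher in Matar Ageta were in the majority in 353 of 417. A stretch of 5 or more fine windows against its surroundings occurred once, from 56800 to 57399, with 129 genes in favour of Arka Chaitra and 16 in favour of Matar Ageta inside a Matar Ageta-rich run.

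The number of listed genes, which did not enter the rule for windows, also changed with the runs. The entries come from a transcriptome assembly, so this number may itself depend on RNA levels. Beyond the TRINITY_GG prefix of the identifiers, how the assembly was made is not known here. The 4 Arka Chaitra-rich runs listed 164 to 171 assembled genes per 100 cluster numbers, at 1 CPM or not, and the 4 Matar Ageta-rich runs listed 193 to 194. The averages of the runs did not overlap, but single windows did, at 158 to 183 in the Arka Chaitra-rich kind and 176 to 213 in the Matar Ageta-rich kind. The measures that follow come from the same control levels that set the kind of window and describe it. Genes that reached 1 CPM went the other way, at 986 per window in the Arka Chaitra-rich kind and 810 in the Matar Ageta-rich kind. The Arka Chaitra-rich windows took 61.0% and 61.8% of the counts of the Arka Chaitra control columns, against 46.9% and 49.5% of the Matar Ageta control columns. The Matar Ageta columns differed along this division: the mean log2 ratio of the first over the second was -0.27 in Arka Chaitra-rich windows and 0.18 in Matar Ageta-rich windows. For the Arka Chaitra columns it was -0.04 and -0.02. The medians were -0.00069 and 0 for the Matar Ageta columns and -0.0035 and 0 for the Arka Chaitra columns, so the means were set by a part of the genes. The part of the column difference in the split was not tested. Without the first Matar Ageta column 28 windows were Arka Chaitra-rich, and without the second 29 were. Only their number was recorded, so whether they were the same windows is not known.

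**Figure D4:**
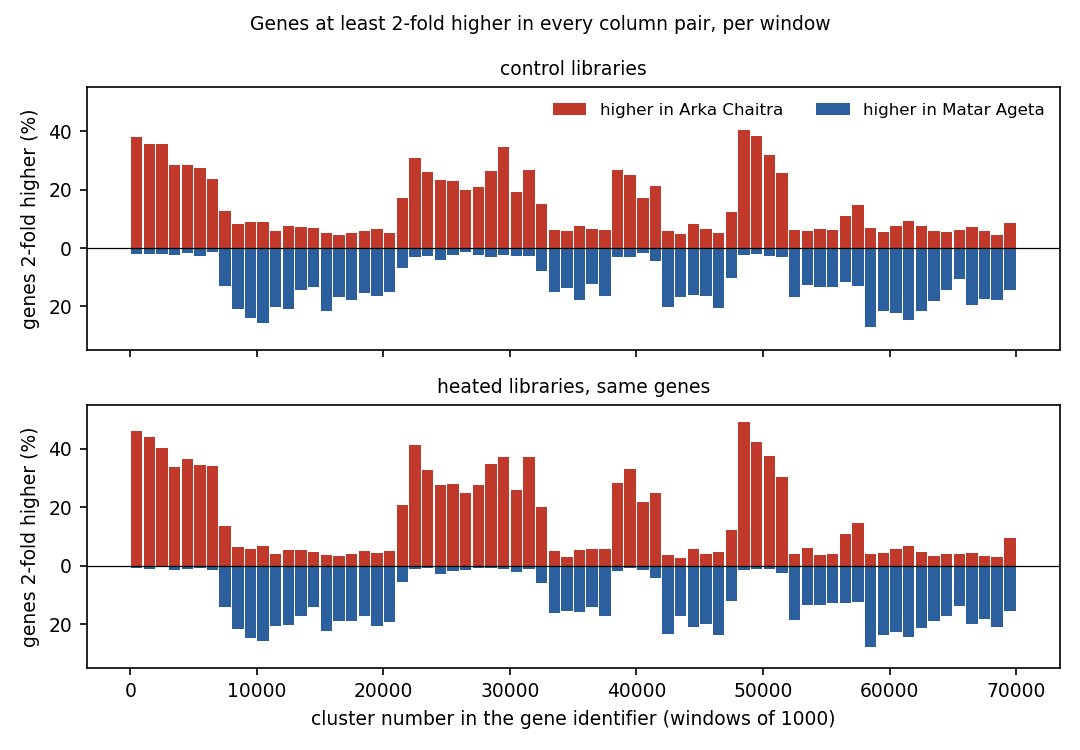
Share of the 61595 measured genes that passed the 2-fold rule for Arka Chaitra (red, upward) or for Matar Ageta (blue, downward), for each window of 1000 cluster numbers, in the control libraries (top) and in the heated libraries (bottom). Both panels show the same 4 runs in which red exceeds blue, and red also exceeds blue in the window from 57000.

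The heated libraries are other samples than those that chose the genes and windows. Among the genes measured in the controls, 10865 passed the 2-fold rule for heated Arka Chaitra (17.6%) and 6954 for heated Matar Ageta (11.3%). Of the 1962 genes 16-fold higher in the Arka Chaitra control, 1893 (96.5%) were among the 10865, and 1 was at least 2-fold higher in heated Matar Ageta. Those 1893 make up 17.4% of the 10865. Of the 1086 genes 16-fold higher in the Matar Ageta control, 988 (91.0%) were among the 6954, of which they make up 14.2%, and 4 were higher in heated Arka Chaitra. Their median ratios were alike too. The median log2 ratio of the 1962 genes was 5.21 in the heated libraries and 5.25 in the controls, and that of the 1086 genes was -5.14 and -5.19. Where the lower cultivar held 0 counts, the ratio is set by the level in the higher cultivar and the added 0.5 CPM. In the controls that held for 1337 of the 1962 genes and 361 of the 1086 genes. With 1 control column left out to choose the genes, 84.6% to 95.6% of the Arka Chaitra genes and 77.1% to 87.0% of the Matar Ageta genes were seen again. The lowest of these were 2158 of 2552 genes without the second Arka Chaitra column and 1136 of 1474 without the first Matar Ageta column. Without the second Matar Ageta column it was 2990 of 3129 Arka Chaitra genes.

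Smaller control differences were seen again less often. Of the 9733 genes 2-fold higher in the Arka Chaitra control, 7461 (76.7%) were also 2-fold higher in heated Arka Chaitra, which is 68.7% of that list. Of the 6791 higher in the Matar Ageta control, 4602 (67.8%) were also higher in heated Matar Ageta, 66.2% of that list. By the ratio of summed libraries, genes 2-fold to 4-fold higher in the Arka Chaitra control had a median log2 ratio of 1.09 after heat and 1.61 in the controls. Those 2-fold to 4-fold higher in the Matar Ageta control had -0.62 after heat and -1.60 in the controls. At 4-fold to 8-fold the Matar Ageta genes still came to only -0.93 after heat, from 4002 genes at -2.38 in the controls, whereas 5588 Arka Chaitra genes had 2.20 after heat and 2.40 in the controls. In these middle sizes the lists higher in Arka Chaitra thus lay nearer to their control values than the lists higher in Matar Ageta. At 16-fold or more both lay near them, at 4.92 after heat and 4.98 in the controls for 2536 genes, and at -4.77 and -4.85 for 1540 genes. At 4-fold to 8-fold, 56.8% of the Matar Ageta genes and 72.9% of the Arka Chaitra genes kept their sign after heat. The heated quartile nearer to 0 was itself 0 in both of these groups. A gene with 0 counts in both heated libraries gets a log2 ratio of 0, and such genes were not counted. Choosing genes by their control ratio alone makes a smaller ratio likely in any other pair of libraries.

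**Figure D5:**
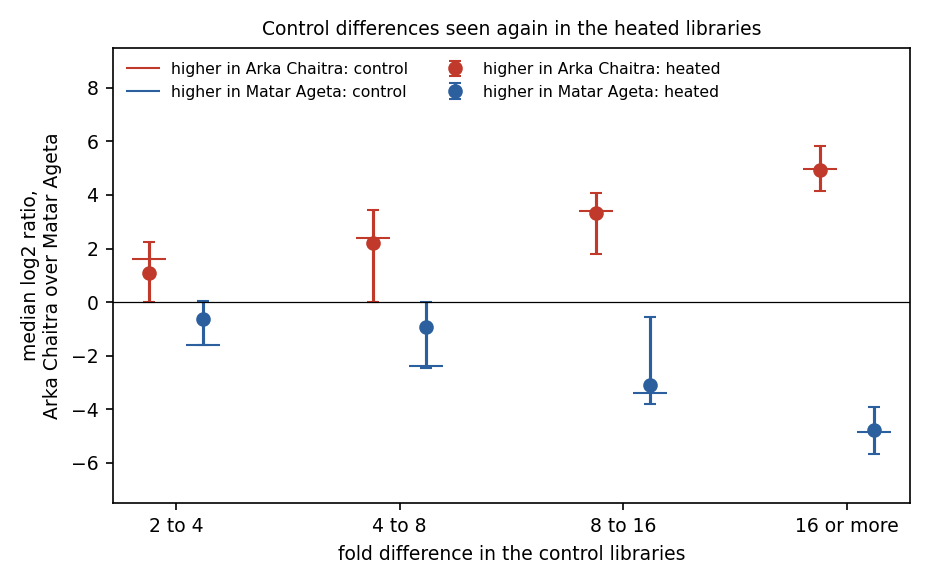
Median log2 ratio of Arka Chaitra over Matar Ageta, with 0.5 CPM added, for genes grouped by the fold difference between the summed control libraries. Dashes are the control values that define the groups, points are the medians in the heated libraries and whiskers their quartiles; points lie near the dashes at 16 or more in both cultivars, and the gap from point to dash is largest in Matar Ageta at 4 to 8.

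The run pattern was present in the heated libraries. In the Arka Chaitra-rich windows, 32.8% of genes were 2-fold higher in heated Arka Chaitra and 2.00% in heated Matar Ageta, and in the controls the shares were 26.7% and 3.09%. In the Matar Ageta-rich windows the shares were 5.32% and 18.8% after heat and 6.97% and 17.5% in the controls. Genes higher in heated Arka Chaitra were in the majority in 28 of 28 Arka Chaitra-rich windows and in 1 of 42 Matar Ageta-rich windows. That window, from 57000, was also the exception in the controls by the 2-fold count (127 genes for Arka Chaitra, 111 for Matar Ageta).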

How the data were processed

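RNA from unopened buds was sequenced from libraries made with a SMARTER mRNA kit, per the labels' protocols. The submitters' processing notes list 5 tools (DESeq2, RSEM, Bowtie2, STAR, FastQC) without version or role, and a genome build is not given in the sources used here. Per the file headers, rows are assembled genes. The authors deposited expected counts, which are estimated per assembled gene and not normalized, and tables scaled per cultivar, which were not used here. The 2 numbered columns per library were treated as measurements of 1 sample.

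The tables were joined by identifier. Columns were scaled by TMM over all 8 columns (edgeR 4.0.16, R 4.3.3). Counts were rounded to whole numbers for exact intervals and for DESeq2 1.42.0 size factors, an alternative. Other steps used pandas 2.3.3 and scipy 1.17.1. Each group is 1 sample, so differences were called by size, on log2(CPM + 0.5) with at least 1 CPM in the higher summed library, and no test was run. Intervals and limits cover counting error only. The call rules were run on simulated counts that varied by counting error only. No further spread between columns was simulated, so the run does not show how the rules treat such spread.

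Named genes were the one with most CPM in each 16-fold set and the pair from a cluster holding both directions, at most 2 identifiers per direction. In a pea gene table of 65673 entries (assembly CAAS_Psat_ZW6_1.0), 0 identifiers found a match. The samples, rules and windows were chosen with earlier results of these data known. The fine windows and the lists of 100 genes were added after seeing the data.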

Additional observations from a re-analysis of the deposited data

Results flagged for a closer look

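The sign of the cultivar difference turned between control and heated buds for a small number of genes. In 41 genes every Arka Chaitra control column was at least 2-fold above every Matar Ageta control column, while every heated Matar Ageta column was at least 2-fold above every heated Arka Chaitra column. In 103 genes the reverse held. They are 0.421% of the 9733 genes higher in the Arka Chaitra control and 1.52% of the 6791 higher in the Matar Ageta control. The difference between the cultivars' changes was not tested, since each group is 1 sample.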

How the results depend on the processing

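Of 142 alternative values for 12 counts, 105 stayed within 1.5 times the reported count, including all under the other scalings (DESeq2 size factors, total counts, TMM over the control columns). Those scalings put the median log2 ratio of Arka Chaitra over Matar Ageta at 0.18, -0.04 and 0.05, against 0.05, and the Arka Chaitra share of 2-fold calls at 57.3% to 61.5%. The 16-fold counts depended most on the pseudocount: with 0.1 CPM the 16-fold genes were 4517 and 2452 (Arka Chaitra, Matar Ageta), 3828 and 1833 of them seen again after heat, and 25 clusters held both directions. With 2 CPM these were 540 and 352, 528 and 329, and 0 clusters, and the summed-library counts were 11166 and 7742. A larger pseudocount needs a higher level for the same fold. With a filter of 5 CPM the 2-fold counts were 5840 and 4365 by column pairs and 7816 and 5812 by summed library, since fewer genes were tested. Genes with whole-number counts in all control columns (within 0.005) numbered 59, so this alternative says nothing: 1 and 0 by column pairs at 2-fold, 39 and 20 by summed library, and 0 for both 16-fold counts, their heated counts, the clusters and the windows. Cluster sums were not run on it.

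With each control column left out in turn, the 2-fold counts by column pairs were 11738 to 15208 (Arka Chaitra) and 8589 to 13419 (Matar Ageta), and the Arka Chaitra share of calls was 48.9% to 63.5%, lowest without the second Matar Ageta column, where the excess turned over. The 16-fold Arka Chaitra genes were 2138 to 3129, of which 2010 to 2990 were seen again after heat. Cluster sums higher in Matar Ageta were 7302 to 9128. Clusters with both directions were 3 to 7. The Arka Chaitra-rich windows were 27 to 30 in all alternatives except the whole-number one. No paired analysis was possible because the control groups share only 1 replicate number. The 2 columns of a library were most often at least 2-fold apart at 1 to 5 CPM (32.9% in Arka Chaitra, 35.2% in Matar Ageta). The part of depth in this was not tested.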
